A study of Mus musculus with 8 samples.

Results

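The 8 genes described here encode proteins that are normally made in peripheral organs and that are known as targets of autoimmunity or as standard examples of tissue-restricted antigens. They are *Ins2* (insulin), *Rbp3* (the retinoid carrier of the retina), *Tg* (thyroglobulin), *Gad1* (a glutamate decarboxylase of GABA neurons), *Mog* (a glycoprotein on the surface of myelin), *Myh6* (the cardiac α-myosin heavy chain), *Chrna1* (the α subunit of the muscle acetylcholine receptor), and *Csn2* (the milk protein β-casein). They were named by symbol, with no threshold on their values, by a choice made with earlier results of these data known, and they are 8 of the 55450 genes in the count table. Thymic epithelial cells (TECs) support T cell development, and those of the medulla (mTECs) transcribe many genes of other organs, so that T cells that recognize these products can be deleted or diverted to the regulatory lineage. The nuclear protein Aire promotes much of this expression, and Fezf2 is another transcription factor known to take part in it. RANK, the product of *Tnfrsf11a*, is a receptor whose signals are known to drive the maturation of Aire-expressing mTECs, whereas CCL21 is a chemokine made by another mTEC subset.

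The RNA-sequencing libraries come from mouse embryos at embryonic day 17 (E17), whose CD45-EpCAM+ TECs were split by flow cytometry into 3 populations. Every embryo carried a tdTomato reporter knocked into *Ccl21a* and a Venus reporter transgene of *Tnfrsf11a*, and the sort gates rested on these reporters. There were 3 libraries of CCL21-RANK+ cells (RANK+ TECs below), 3 of CCL21+RANK- cells (CCL21+ TECs), and 2 of CCL21-RANK- cells (double-negative TECs). The double-negative gate takes every CD45-EpCAM+ cell without either reporter signal, so it is not a single subset. The study describes its replicates as biological, but the labels do not say whether libraries of 1 group came from separate embryos, litters or pools, and the p-values measure the spread between these libraries. Totals ranged from 42751858 to 71625319 expected counts per library. An expected count is a read count in which RSEM, a quantification program, has divided reads that match several genes. Each sort gene had its highest mean in the population of its gate, but neither was confined to it. *Tnfrsf11a* was at 104 ± 9.37 RPKM (SD, n = 3) in RANK+ TECs against 9.50 ± 0.750 (SD, n = 3) in CCL21+ and 2.44 ± 0.258 (SD, n = 2) in double-negative TECs. *Ccl21a* was at 404 ± 137 RPKM in CCL21+, 109 ± 38.4 in RANK+, and 7.89 ± 1.41 in double-negative TECs. It was 13.8-fold higher in RANK+ than in double-negative TECs, though both were sorted as CCL21-negative (adjusted p = 2.49e-05 from edgeR). *Tnfrsf11a* was 3.89-fold higher in CCL21+ than in double-negative TECs (adjusted p = 8.7e-05 from edgeR). *Aire* was at 113 ± 18.4 RPKM (SD, n = 3) in RANK+ TECs and at 0.747 and 0.465 RPKM in the mean of the CCL21+ and double-negative TECs. The epithelial genes *Epcam*, *Krt8*, and *Foxn1* were present in every library. In RANK+ TECs *Epcam* was higher, and *Krt8* and *Foxn1* were lower, than in both other populations. *Krt5*, another epithelial gene, was higher there than in double-negative TECs and lower than in CCL21+ TECs. RPKM is the count scaled by the exon length in kilobases and by the total of the library, CPM is scaled by the total alone, and levels of single genes are compared with each other as RPKM.

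Levels of most of these genes were near 0 outside RANK+ TECs. *Csn2*, *Tg*, *Gad1*, and *Chrna1* were higher in each of the 3 RANK+ libraries than in any of the other 5 libraries, *Myh6* and *Ins2* were high in only some RANK+ libraries, and *Rbp3* and *Mog* were at or close to 0 throughout. A gene was called where the adjusted p-value of edgeR's quasi-likelihood test, over 21451 tested genes, was under 0.05 and the fold change was over 1.5. By this rule 5 of the 8 genes were higher in RANK+ than in double-negative TECs, where 25.4% of all tested genes were called higher and 16.9% lower. Against CCL21+ TECs 6 of the 8 genes were higher in RANK+ TECs, with 27.5% of all tested genes called higher and 17.8% lower. No member was lower in either comparison. Either number of higher genes fell to as few as 3 when 1 library was left out. Both comparisons use the same 3 RANK+ libraries and are therefore not independent. *Rbp3* and *Mog* did not pass the filter on low counts, which keeps a gene that is high in 1 group only, so the counts concern 6 tested genes and not all 8. The bulk libraries do not tell more expressing cells from more RNA per cell.

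**Figure D1:**
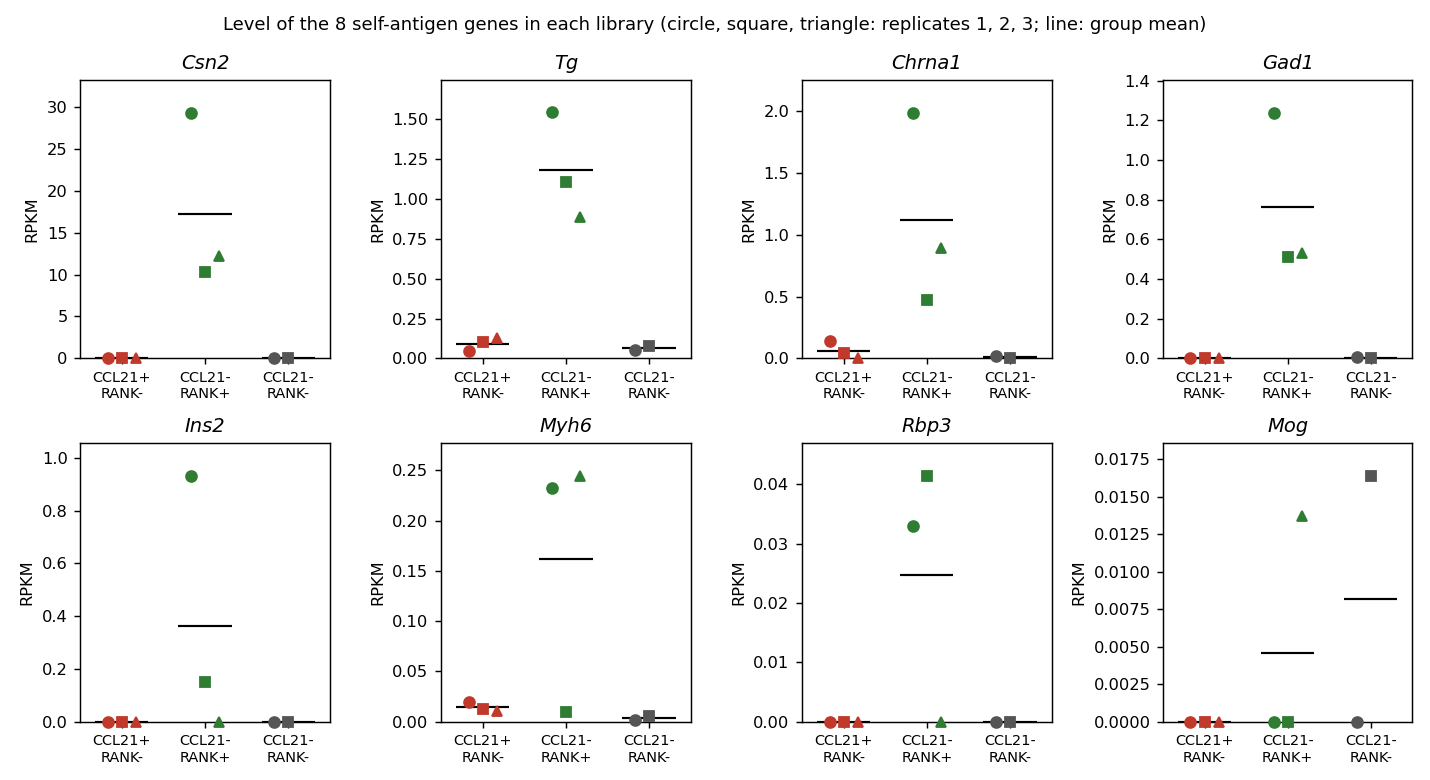
Level of each gene in RPKM (linear axes from 0, a different scale for each gene) in the 8 libraries, with group means as lines. In the *Csn2*, *Tg*, *Chrna1*, and *Gad1* panels the 3 CCL21-RANK+ libraries lie above all others, whereas *Ins2*, *Myh6*, and *Rbp3* each have a CCL21-RANK+ library at 0 or level with another population, and *Mog* has at most 2 counts in a library.

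The stretches upstream of the RefSeq transcription start are shown for the 3 genes that held a match to 1 of 3 short motifs, as 250 bases from RefSeq (GRCm38.p6), 5′ to 3′ on the strand of the gene. They are printed so that the matches and base composition given next can be read in them. Capitals mark the matches to these motifs, which were searched on both strands and chosen after the sequences were seen: TTCNNNGAA, the core to which STAT factors bind, CAGCTG, an E-box bound by myogenic factors, and TATAAA, the TATA box. The stretches are chr5:87699426-87699675 (minus strand) for *Csn2*, chr2:73580339-73580588 (minus strand) for *Chrna1*, and chr2:70561879-70562128 (plus strand) for *Gad1*. The RefSeq start is not always the outer end of the gene in the GENCODE annotation used for the positions below, so that the *Gad1* stretch lies inside the GENCODE gene and most of the *Csn2* stretch does too.
Csn2: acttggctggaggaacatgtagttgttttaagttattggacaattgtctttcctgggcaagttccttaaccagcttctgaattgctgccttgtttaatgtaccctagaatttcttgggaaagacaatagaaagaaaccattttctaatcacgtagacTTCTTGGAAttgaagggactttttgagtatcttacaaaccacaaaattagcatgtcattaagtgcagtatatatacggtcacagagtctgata
Chrna1: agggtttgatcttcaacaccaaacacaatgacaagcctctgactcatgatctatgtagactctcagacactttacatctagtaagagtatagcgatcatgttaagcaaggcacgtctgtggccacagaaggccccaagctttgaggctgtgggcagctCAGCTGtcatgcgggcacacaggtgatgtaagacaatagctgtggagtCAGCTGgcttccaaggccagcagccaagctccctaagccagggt
Gad1: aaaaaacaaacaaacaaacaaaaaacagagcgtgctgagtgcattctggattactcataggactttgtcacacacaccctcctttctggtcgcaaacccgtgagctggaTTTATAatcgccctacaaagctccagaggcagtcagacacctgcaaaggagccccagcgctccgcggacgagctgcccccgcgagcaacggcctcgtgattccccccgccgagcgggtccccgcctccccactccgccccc
The *Csn2* stretch held a TTCNNNGAA match that begins 93 bases before the start, and 7.02% of 32851 promoter stretches of this length held that motif. The *Chrna1* stretch held CAGCTG matches that begin 92 and 44 bases before the start, a motif found in 13.0% of stretches. The *Gad1* stretch held a TATAAA match on the opposite strand, 141 bases before the start, as did 12.4% of stretches on either strand. *Gad1* had 17 CpG dinucleotides, *Chrna1* 3, and *Csn2* 2, against a median of 6 over all stretches. Of the 6 members with a RefSeq stretch the other 3, *Rbp3*, *Myh6*, and *Mog*, held 0 matches to the 3 motifs and 2 CpG each. A match is only a string of letters, and no binding was measured in these samples.

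*Csn2* (ENSMUSG00000063157.9, chr5:87692624-87699630, minus strand) was the most abundant of the 8 genes in RANK+ TECs. β-casein is a major casein of mouse milk and is normally secreted by mammary epithelium during lactation. Its level was 29.3, 10.3, and 12.2 RPKM in the RANK+ libraries, from 11629, 3573, and 3602 counts. It was 0.0145, 0.0534, and 0.0498 RPKM in the CCL21+ libraries and 0.0963 and 0.0302 RPKM in the double-negative libraries. RANK+ replicate 1 was the highest, and the groups did not overlap in either comparison. The fold of mean CPM was 273 over double-negative TECs (log2 fold change 7.94 ± 0.69 SE, adjusted p = 1.33e-05 from edgeR) and 440 over CCL21+ TECs (8.67 ± 0.61 SE, adjusted p = 3.2e-06 from edgeR). By mean RPKM it ranked 2143 of 21951 protein-coding genes in that population. This rank rests on the length of all annotated exons, 6926 bases, which for *Csn2* includes transcripts that keep introns. With the longest transcript that carries a consensus coding sequence, 1329 bases, its mean was 89.9 ± 54.6 RPKM (SD, n = 3).

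*Tg* (ENSMUSG00000053469.14, chr15:66670753-66850721, plus strand) had the smallest ratio of highest to lowest RANK+ library, 1.74, of the members with counts in all 3. Thyroglobulin is the scaffold on which the thyroid makes its hormones and a target of autoimmune thyroiditis. The level was 1.54, 1.10, and 0.890 RPKM in the RANK+ libraries, 0.0434, 0.105, and 0.131 RPKM in the CCL21+ libraries, and 0.0517 and 0.0786 RPKM in the double-negative libraries. The 5 libraries of the other populations held between 23 and 64 counts, well above the floor of 3 counts, and *Csn2* was the only other member above the floor in all 5. It was 18.1-fold higher in RANK+ than in double-negative TECs (log2 fold change 4.06 ± 0.51 SE, adjusted p = 0.000147 from edgeR) and 12.7-fold higher than in CCL21+ TECs (3.54 ± 0.42 SE, adjusted p = 8.43e-05 from edgeR). The gene *Sla* lies on the opposite strand within *Tg* and was also higher in RANK+ TECs, with 578, 321, and 288 counts there and at most 175 elsewhere. The exons of *Sla* and *Tg* share 0 bases. Another antisense gene, *Gm17140*, shares 112 exon bases with *Tg* and had at most 4 counts in any library, and the sources used here do not give whether counting used the strand.

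*Gad1* (ENSMUSG00000070880.10, chr2:70553072-70602014, plus strand) was near absent outside RANK+ TECs. Its product, GAD67, makes the transmitter GABA from glutamate and is closely related to the product of *Gad2*, an autoantigen of type 1 diabetes. The level was 1.24, 0.512, and 0.533 RPKM in the RANK+ libraries, from 542, 196, and 174 counts, 0 in the 3 CCL21+ libraries, and 0.00776 and 0 RPKM in the double-negative libraries, from 4 and 0 counts. A count of 0 allows a level of up to 3 counts, which is 0.0419 to 0.0702 CPM over the 8 libraries, and these limits and all intervals on counts cover counting error only. *Gad1* was at least 103-fold higher than in CCL21+ TECs (adjusted p = 0.000156 from edgeR) and 196-fold higher than in double-negative TECs (log2 fold change 7.38 ± 1.05 SE, adjusted p = 0.00079 from edgeR). The latter fold rests on 4 counts, and the ratio of pooled counts was 211 with an exact 95% counting interval of 82.2 to 777. *Gad2*, the companion gene, had 10, 3, and 2 counts in the RANK+ libraries and 0 in all others, and it did not pass the filter. The mean of *Gad1* was under 1 RPKM, so neither call was kept where a mean of more than 1 RPKM was required.

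*Chrna1* (ENSMUSG00000027107.3, chr2:73563215-73580338, minus strand) encodes the receptor subunit that autoantibodies bind in myasthenia gravis. The level was 1.99, 0.473, and 0.896 RPKM in the RANK+ libraries, 0.138, 0.0446, and 0 RPKM in the CCL21+ libraries, and 0.0203 and 0 RPKM in the double-negative libraries. The groups did not overlap, but the RANK+ libraries differed 4.21-fold among themselves. *Chrna1* was 110-fold higher in RANK+ than in double-negative TECs (log2 fold change 6.57 ± 1.61 SE, adjusted p = 0.00777 from edgeR), against 6 counts in all, with a pooled ratio of 119 and an exact 95% counting interval of 54.5 to 326. Over CCL21+ TECs it was 18.4-fold higher (4.01 ± 1.13 SE, adjusted p = 0.0138 from edgeR). The call over double-negative TECs was lost without double-negative replicate 2 (adjusted p = 0.0574), and that over CCL21+ TECs without CCL21+ replicate 2 (adjusted p = 0.0521), both from edgeR.

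*Myh6* (ENSMUSG00000040752.16, chr14:54941921-54966927, minus strand) encodes the α-myosin heavy chain of heart muscle, a target in autoimmune myocarditis. The level was 0.232, 0.00922, and 0.244 RPKM in the RANK+ libraries, 0.0199, 0.0129, and 0.0108 RPKM in the CCL21+ libraries, and 0.00220 and 0.00617 RPKM in the double-negative libraries. RANK+ replicate 2 lay below every CCL21+ library, so these groups overlapped, and the highest RANK+ library was 26.5 times the lowest. The fold of mean CPM was 38.7 over double-negative TECs (log2 fold change 5.01 ± 1.40 SE, adjusted p = 0.0146 from edgeR) and 11.1 over CCL21+ TECs (3.28 ± 1.06 SE, adjusted p = 0.0249 from edgeR). The former rests on 4 counts in double-negative TECs, with a pooled ratio of 37.7 and an exact 95% counting interval of 14.5 to 140. *Myh7*, the neighbouring and near-identical β-myosin gene, had 776, 249.9, and 292 counts in RANK+ TECs. Over the libraries of all populations *Myh6* held 1.23% to 22.8% of the summed counts of the pair, and at most 19.4% in RANK+ TECs. Several *Myh6* values were not whole numbers, so reads were shared between the genes and the level of *Myh6* alone is uncertain. Summed, the pair had a log2 fold change of 5.40 over double-negative TECs (adjusted p = 4.03e-05 from edgeR) and 3.39 over CCL21+ TECs (adjusted p = 0.000104 from edgeR), and of 2.01 between CCL21+ and double-negative TECs (adjusted p = 0.0306 from edgeR). The sum and the transcript length used for *Csn2* were tried after the data were seen. The call of *Myh6* alone was lost with the replicate number as a block (adjusted p = 0.0696 and 0.0824), without either double-negative library (0.102 and 0.0722), and without CCL21+ replicate 2 or 3 (0.0694 and 0.0744), all from edgeR.

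*Ins2* (ENSMUSG00000000215.11, chr7:142678656-142743381, minus strand) encodes the insulin form that is known to be made in the mouse thymus. Its level was 0.931, 0.152, and 0 RPKM in the RANK+ libraries, from 70, 10, and 0 counts, and 0 in the 5 other libraries. The signal thus stood mainly in 1 library. The mean was at least 11.0-fold higher than in double-negative TECs, which did not pass the threshold (adjusted p = 0.0647 from edgeR), and at least 8.37-fold higher than in CCL21+ TECs, which did (adjusted p = 0.038 from edgeR). This call was lost when any 1 of the 3 CCL21+ libraries was left out (adjusted p from 0.0705 to 0.0768 from edgeR) and where a mean of more than 1 RPKM was required. Over double-negative TECs 4 alternatives, the replicate number as a block among them, did call *Ins2*. The lowest adjusted p there was 0.0177, from edgeR without the filter. Without RANK+ replicate 1, which held 70 of its counts, *Ins2* did not pass the filter and was not tested. *Ins1*, the other insulin gene of the mouse, was at 0 in all 8 libraries.

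*Rbp3* (ENSMUSG00000041534.9, chr14:33954003-33964216, plus strand), a target in experimental uveitis, had 10, 11, and 0 counts in the RANK+ libraries and 0 elsewhere. Its level was 0.0330, 0.0414, and 0 RPKM, and the mean was at least 3.04-fold higher than in double-negative TECs and at least 2.32-fold higher than in CCL21+ TECs. Tested without the filter, it did not pass the threshold (adjusted p = 0.161 and 0.0914 from edgeR). *Mog* (ENSMUSG00000076439.12, chr17:37010743-37023398, minus strand), the antigen used to induce experimental encephalomyelitis, had 1 count in a RANK+ library, 2 in a double-negative library, and 0 elsewhere. At this depth no difference in *Mog* was detectable.

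**Figure D2:**
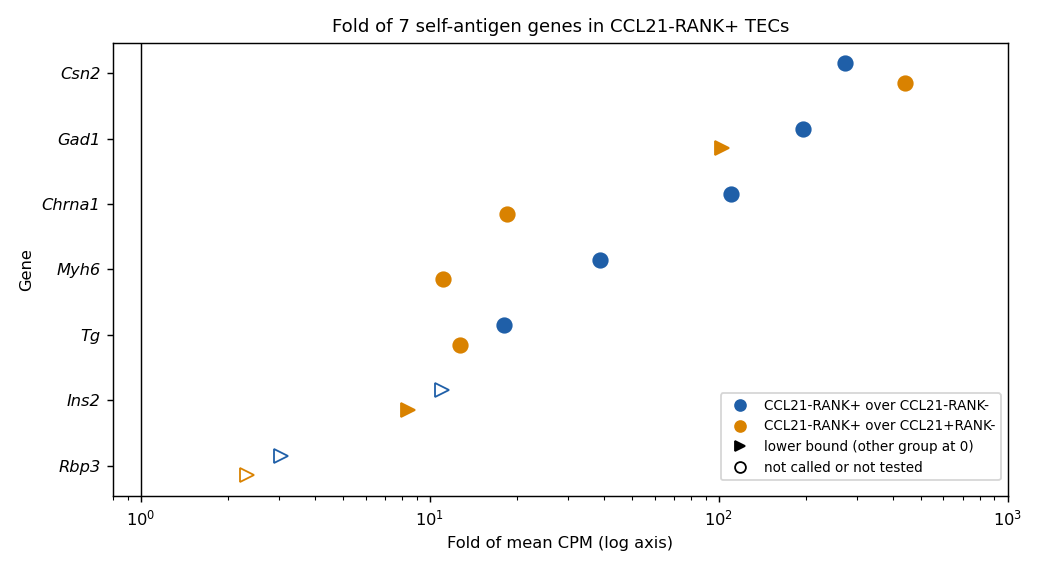
Fold of mean CPM (log axis) of 7 genes in CCL21-RANK+ TECs over CCL21-RANK- TECs (blue) and over CCL21+RANK- TECs (orange). Filled symbols were called, open symbols were not called or not tested, and triangles are lower bounds where the other population was at 0; *Csn2* reached 273 and 440, and the bounds of *Rbp3* were 3.04 and 2.32.

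Every library of RANK+ TECs lay above every double-negative library for 5 of the 8 genes, as for 38.8% of all tested genes, and above every CCL21+ library for 4 of the 8, as for 36.9% of all tested genes. An exact permutation test of single genes cannot go below 0.1 with 3 against 3 libraries or 0.2 with 3 against 2, so the p-values above come from the fit across all genes. Between CCL21+ and double-negative TECs edgeR called none of the 6 tested members, with 0 at an unadjusted p under 0.05 and 0 from DESeq2, where 5.59% of all tested genes were called higher and 4.32% lower in CCL21+ TECs. *Tg* had a log2 fold change of 0.51 ± 0.46 SE (adjusted p = 0.547) and *Csn2* of -0.73 ± 0.78 SE (adjusted p = 0.627) in this comparison, both from edgeR. Of all tested genes 18.4% had every CCL21+ library above every double-negative library, and *Myh6* was the only member of that kind. In RANK+ TECs the order of mean RPKM was *Csn2*, *Tg*, *Chrna1*, *Gad1*, *Ins2*, *Myh6*, *Rbp3*, and *Mog*. This order depends on the length used, since on the longest coding transcript *Gad1* was at 1.73 ± 0.942 RPKM (SD, n = 3), above *Tg* at 1.24 ± 0.351 and *Chrna1* at 1.12 ± 0.783. *Csn2* stood apart in each library, whereas *Tg*, *Chrna1*, and *Gad1* overlapped over their libraries, and *Ins2* ranged from 0 into the range of *Gad1*.

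The order of the RANK+ libraries was shared by some members and not by others. Replicate 1 was the highest for *Ins2*, *Tg*, *Gad1*, *Chrna1*, and *Csn2*. It was followed by replicate 3 and then 2 for *Gad1*, *Chrna1*, and *Csn2*, and by replicate 2 and then 3 for *Tg* and *Ins2*. Replicate 3 was the highest for *Myh6*. *Mog*, with 1 count in replicate 3, and *Rbp3*, with 11 counts in replicate 2 against 10 in replicate 1, were too low to give an order. Replicate 1 was also the highest for 77.7% of the 4442 genes called higher in RANK+ TECs in both comparisons, and it had 26954 genes with counts against 24154 and 25011 in replicates 2 and 3. The highest and lowest libraries differed 1.74-fold for *Tg*, 2.42-fold for *Gad1*, and 2.85-fold for *Csn2*. Set against the counts of *Aire* in the same library, *Tg* had 27.4, 27.3, and 18.2 counts per 1000 *Aire* counts and *Gad1* had 18.9, 10.9, and 9.35. *Chrna1* had 17.4, 5.76, and 9.03 and *Ins2* 2.44, 0.554, and 0 on this scale. edgeR's gene-wise biological coefficient of variation was 1.32 for *Ins2*, 0.960 for *Chrna1*, and 0.811 for *Myh6*, against 0.342 for *Tg*, 0.418 for *Csn2*, and 0.479 for *Gad1*. The values fitted for genes of like abundance were 0.804, 0.450, and 0.659 for *Ins2*, *Chrna1*, and *Myh6*, and 0.341, 0.147, and 0.435 for *Tg*, *Csn2*, and *Gad1*.

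Genes of the organs that normally make these antigens were listed for each member, and most of those measured were also called higher in RANK+ TECs. Over double-negative TECs the counts of higher genes were 8 of 12 for the islet, 8 of 13 for the retina, 8 of 11 for the thyroid, and 7 of 9 for GABA neurons. They were 8 of 14 for myelin and its glia, 12 of 16 for the heart, 16 of 20 for skeletal muscle and its endplate, and 6 of 9 for the mammary gland. Antigens of other organs gave 22 of 29. Over CCL21+ TECs the corresponding counts were 9, 7, 9, 7, 11, 11, 14, 6, and 20, for the lists as just named. Of all tested genes 25.4% were called higher over double-negative TECs and 27.5% over CCL21+ TECs. The list totals include up to 5 genes that were not tested, whereas these shares are over tested genes only. The medians of the log2 ratio, with values under the floor set to it, were 2.67 to 4.78 over double-negative TECs, 4.42 for the 8 members, and 0.18 over all tested genes. Against CCL21+ TECs they were 2.22 to 3.89, 3.57, and 0.23 in the same order. The lists were chosen with earlier results of these data known, and a gene that is high in RANK+ TECs alone passes the filter through that group.

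**Figure D3:**
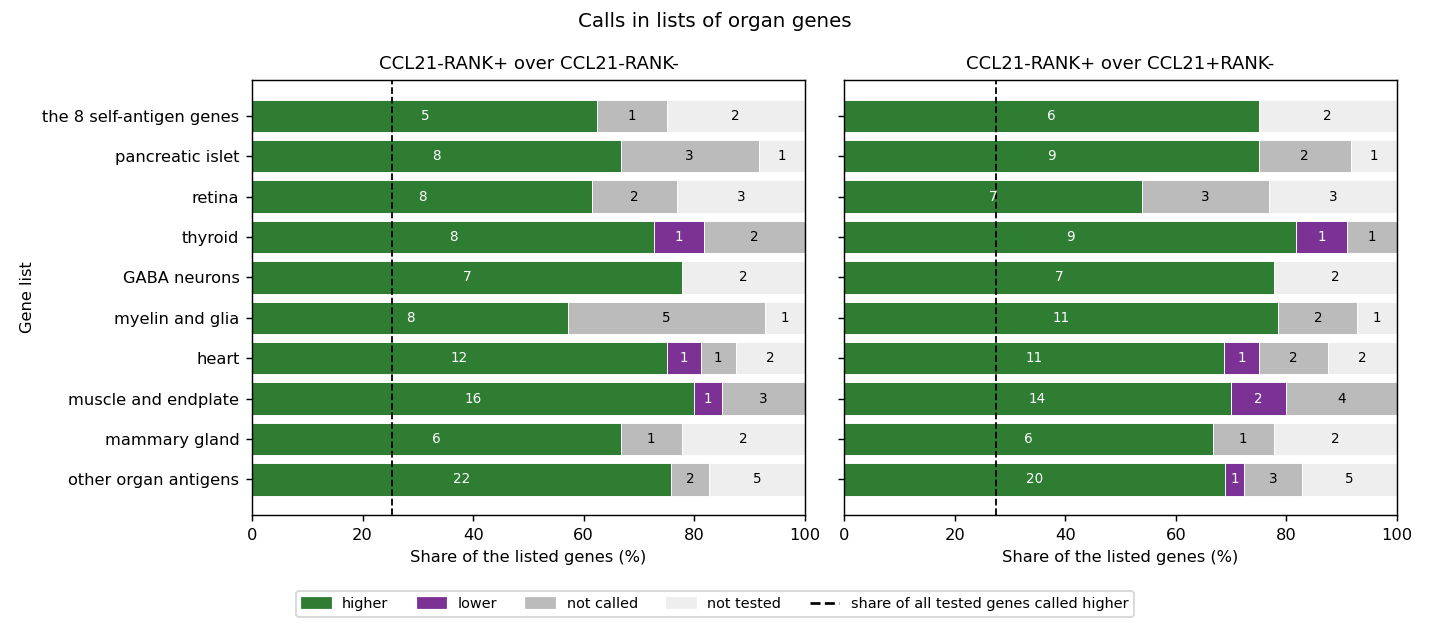
Share of each gene list called higher, lower, not called, or not tested in CCL21-RANK+ TECs, over CCL21-RANK- (left) and over CCL21+RANK- TECs (right), with the number of genes in each segment and the share of all tested genes called higher as a dashed line (25.4% and 27.5%). The green segments of all lists end to the right of that line.

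Among hormone genes of the islet, *Sst* (somatostatin) was at 8.04 ± 6.77 RPKM (SD, n = 3) in RANK+ TECs and at least 134-fold higher than in double-negative TECs (adjusted p = 0.000665 from edgeR), and *Gcg* (glucagon) was at 1.54 ± 1.64 RPKM and at least 53.2-fold higher (adjusted p = 0.00416 from edgeR). *Ptprn*, which encodes the islet autoantigen IA-2, was at 0.527 ± 0.232 RPKM and at 0 in CCL21+ TECs, at least 39.5-fold higher. The β-cell factor *Mafa* was at 18.9 ± 1.58 RPKM in RANK+ TECs, 23.2 ± 3.80 in CCL21+, and 20.1 ± 2.58 in double-negative TECs and was called in neither comparison. *Ptprn2*, which encodes another islet autoantigen, was not called either, at 0.462 ± 0.522 RPKM in RANK+ TECs against 0.838 in double-negative and 1.11 in CCL21+ TECs. *Ins2* was lower than somatostatin and glucagon in each RANK+ library.

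Thyroid genes moved in both directions. *Slc26a4* (the iodide exporter pendrin) and *Pax8* (a thyroid transcription factor) were at 1.17 ± 0.635 and 0.265 ± 0.195 RPKM (SD, n = 3) in RANK+ TECs and at 0 in both double-negative libraries. They were at least 84.4- and 37.2-fold higher (adjusted p = 0.000161 and 0.004 from edgeR). *Calca*, which encodes calcitonin of thyroid C cells, was 75.8-fold higher, at 14.4 ± 11.9 against 0.190 ± 0.0825 RPKM. *Slc5a5*, the iodide importer, went the other way, at 1.5 ± 0.518 RPKM in RANK+ TECs against 5.50 ± 0.424 in double-negative and 8.58 ± 2.11 in CCL21+ TECs (adjusted p = 0.000583 and 5.94e-05 from edgeR).

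Genes of the retina, of GABA neurons, and of myelin were called in RANK+ TECs where *Rbp3* and *Mog* were not. *Abca4*, a photoreceptor transporter, was at 0.573 ± 0.407 RPKM (SD, n = 3) in RANK+ TECs against 2 counts in all in double-negative TECs (adjusted p = 0.000935 from edgeR), and it was 159-fold higher than in CCL21+ TECs. The rod factor *Nrl* was at 0.480 ± 0.358 RPKM, and *Pde6b*, a rod phosphodiesterase subunit, was at 0.0851 ± 0.0547 RPKM and 0 elsewhere. *Rom1*, a disc membrane protein, was present in all populations and 2.24-fold higher than in double-negative TECs (adjusted p = 0.00386 from edgeR), but was not called over CCL21+ TECs. *Slc32a1*, the vesicular GABA transporter, was at 0.648 ± 0.0900 RPKM and 0 in all 5 other libraries, and *Pvalb* (parvalbumin) was at 7.25 ± 5.91 RPKM. The peptide gene *Npy* was at 4.73 ± 2.66 RPKM and the forebrain factors *Dlx5* and *Dlx2* at 1.57 ± 0.388 and 0.294 ± 0.231 RPKM. All 7 tested genes of the GABA neuron list were higher in both comparisons. Myelin genes were present at higher levels, with *Cnp* at 50.9 ± 9.07 RPKM and *Mbp* at 7.04 ± 1.16 RPKM in RANK+ TECs, 5.46- and 12.0-fold higher than in double-negative TECs (adjusted p = 1.28e-06 and 4.48e-05 from edgeR). *Olig1* and *Olig2*, factors of the oligodendrocyte lineage, were at 5.30 ± 1.90 and 1.63 ± 0.285 RPKM there and at no more than 8 summed counts in either of the others, and *Sox10* was 5.27-fold higher than in double-negative TECs. *Mog* had 0, 0, and 1 counts in the same libraries.

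Of 20 genes of skeletal muscle and its endplate, 16 were higher and 1 lower over double-negative TECs, and 14 were higher and 2 lower over CCL21+ TECs. The δ and γ receptor subunits *Chrnd* and *Chrng* were at 4.52 ± 1.76 and 5.85 ± 4.18 RPKM (SD, n = 3) in RANK+ TECs against 0.0308 ± 0.00749 and 0.0241 ± 0.00386 RPKM in double-negative TECs (log2 fold changes 7.03 and 7.74, adjusted p = 4.70e-06 and 9.70e-05 from edgeR). The ε subunit *Chrne*, of the adult receptor, was at 0.710 ± 0.364 RPKM in RANK+ TECs and at 0 elsewhere, and the β subunit *Chrnb1* was at 2.48 ± 1.06 RPKM. *Myog*, the myogenic factor myogenin, was at 38.4 ± 23.5 RPKM in RANK+, 2.98 ± 2.47 in CCL21+, and 0.508 ± 0.164 in double-negative TECs. The myogenic factor *Myod1* was at 0.879 ± 0.385 RPKM, and *Ckm* (muscle creatine kinase) was at 11.0 ± 14.7 RPKM, with a spread larger than its mean. *Musk*, the endplate kinase and itself an autoantigen of myasthenia, was lower than in CCL21+ TECs, at 0.315 ± 0.146 against 0.985 ± 0.264 RPKM (adjusted p = 0.00787 from edgeR), and higher than in double-negative TECs (adjusted p = 0.0424 from edgeR). *Agrn* (agrin) was lower in RANK+ TECs, at 15.9 ± 1.51 RPKM against 67.1 ± 6.43 in CCL21+ and 71.5 ± 2.5 in double-negative TECs (adjusted p = 1.43e-06 and 1.90e-06 from edgeR), and its receptor gene *Lrp4* was not called. The skeletal actin gene *Acta1*, at 10.6 ± 13.1 RPKM in RANK+ TECs, was called in neither comparison. *Dok7*, an activator of the endplate kinase, was at 0.413 ± 0.271 RPKM against 0.435 ± 0.0518 in double-negative TECs and was not called there, and *Rapsn* (rapsyn) and *Myh8* (a perinatal myosin) were not called over CCL21+ TECs. *Chrnd*, *Chrng*, *Musk*, and *Colq* were also called higher in CCL21+ than in double-negative TECs, where *Chrna1* had a log2 fold change of 2.56 ± 1.5 SE and was not called (adjusted p = 0.336 from edgeR). *Musk*, *Chrnb1*, *Chrnd*, *Chrng*, and *Myog* are named here because they bear on *Chrna1* and were picked after their values were seen.

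Around *Myh6*, the heart factors *Gata4* and *Tbx5* were at 1.62 ± 0.716 and 0.556 ± 0.242 RPKM (SD, n = 3) in RANK+ TECs and 0 in double-negative TECs, at least 146- and 60.2-fold higher (adjusted p = 0.000927 and 0.000621 from edgeR). *Actc1* (cardiac actin) was at 10.8 ± 5.41 RPKM and 28.2-fold higher, and *Ryr2*, the calcium release channel of the heart, was at 0.266 ± 0.135 RPKM and 25.1-fold higher. *Adrb1*, a β-adrenergic receptor gene, was the 1 member of the list called lower in both comparisons. Mean RPKM of *Gata4*, *Tbx5*, *Actc1*, and *Ryr2* was above that of *Myh6*.

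The other casein genes were below *Csn2* in RPKM in each RANK+ library. The caseins *Csn1s1*, *Csn1s2a*, and *Csn3* were at 0.116 ± 0.0711, 0.521 ± 0.585, and 0.176 ± 0.165 RPKM (SD, n = 3) in RANK+ TECs and at 0 in double-negative TECs, at least 16.8-, 42.2-, and 16.9-fold higher (adjusted p = 0.00628, 0.0061, and 0.00948 from edgeR). On the length of the longest coding transcript they were at 0.516 ± 0.315, 1.98 ± 2.23, and 0.458 ± 0.428 RPKM, against 89.9 ± 54.6 RPKM for *Csn2*. *Wap*, the whey acidic protein, had 55, 12, and 1 counts in the RANK+ libraries and 0 elsewhere. *Csn1s2b* had 16, 0, and 12 counts there and was not called (adjusted p = 0.0836 and 0.0535 from edgeR). The prolactin receptor gene *Prlr* was at 1.72 ± 0.279 RPKM, 6.61-fold higher than in double-negative TECs (adjusted p = 0.000327 from edgeR), and the mammary factor *Elf5* was 3.73-fold higher.

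**Figure D4:**
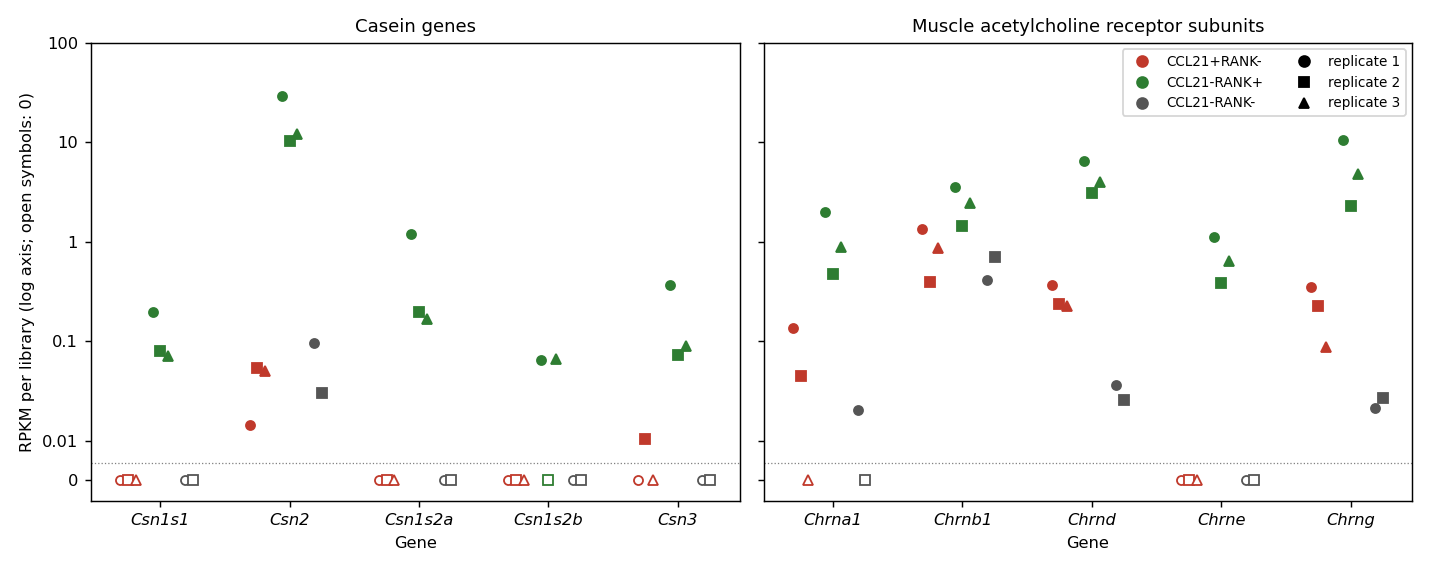
Level in RPKM (log axis, with 0 drawn as open symbols below the dotted line) of the casein genes (left) and of the subunits of the muscle acetylcholine receptor (right) in each of the 8 libraries. *Csn2* lies more than 10 times above the other caseins in each CCL21-RANK+ library, and *Chrna1*, *Chrnd*, and *Chrng* have counts in some or all CCL21+RANK- libraries while *Chrne* has none.

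The caseins are neighbours on chromosome 5, and 4 of the 6 genes nearest to *Csn2* were called higher in RANK+ TECs in both comparisons, namely *Csn1s1*, *Csn1s2a*, and the sulfotransferase genes *Sult1d1* and *Sult1e1*. *Th*, the tyrosine hydroxylase gene next to *Ins2*, was at least 44.0-fold higher than in double-negative TECs, at 0.803 ± 0.366 RPKM (SD, n = 3). Near *Gad1*, *Myo3b* and *Sp5* were higher in both comparisons, at 7.56 and 0.758 RPKM, whereas *Gorasp2* and *Tlk1*, on the other side, were not called. Over the 48 genes that are the 3 nearest on each side of the 8 members, 17 were higher and 4 lower than in double-negative TECs, and 15 and 5 than in CCL21+ TECs. Over all tested genes 25.4% were higher and 16.9% lower in the former comparison, and 27.5% and 17.8% in the latter. Of the 48 genes 13 were not tested, and the neighbours were chosen by position alone.

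The tested genes most like each member over the 8 libraries, by Pearson's r of log2 CPM, were *Olfr329-ps* and *Hbb-bh1* for *Ins2* (r of 0.999 and 0.999), *Eomes* and *Rnase1* for *Tg* (0.991 and 0.991), *Tssk3* and *Gsdma2* for *Gad1* (1.00 and 1.00), *Zap70* and *Arl13a* for *Myh6* (0.968 and 0.966), *Parvg* and *Ces2c* for *Chrna1* (0.994 and 0.992), and *Siglec1* and *Tmprss4* for *Csn2* (0.998 and 0.998). The 8 points fall into 3 populations, and r is given as a description only. With a prior count of 0.5 in place of 2 another gene came first for *Tg*, *Myh6*, *Chrna1*, and *Csn2*. An r over 0.95 was reached by 1873 genes with *Gad1*, 1673 with *Csn2*, 1016 with *Tg*, 191 with *Chrna1*, 49 with *Myh6*, and 43 with *Ins2*. With the prior count of 0.5 these numbers were 1324, 1490, 904, 72, 6, and 36.

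Among antigens of other organs, *Dsg1a* (a desmoglein of skin) reached 43.8 ± 5.67 RPKM (SD, n = 3) in RANK+ TECs, 241-fold over double-negative TECs (adjusted p = 5.92e-06 from edgeR). *Tff3* (a trefoil peptide of intestinal mucus) was at 12.2 ± 14.2 RPKM and *Tgm3* (an epidermal transglutaminase) at 1.87 ± 0.787 RPKM, with 0 counts in double-negative TECs. *Casr*, the calcium-sensing receptor gene of the parathyroid, was 3.19-fold higher than in double-negative TECs but lower than in CCL21+ TECs, at 8.42 ± 1.80 against 30.1 ± 15.2 RPKM.

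Regulators of self-antigen expression and markers of TEC maturation were also measured. *Aire* was 243-fold higher in RANK+ than in double-negative TECs (log2 fold change 7.77, adjusted p = 1.81e-05 from edgeR), and *Fezf2* was at 84.0 ± 14.2 RPKM (SD, n = 3) and 291-fold higher. The costimulatory gene *Cd80*, a marker of mature mTECs, was at 8.91 ± 3.17 RPKM and 197-fold higher, and *Cd86*, of the same family, was at 1.01 ± 0.765 RPKM. The repressor gene *Prdm1* was at 0.571 ± 0.391 RPKM and *H2-Aa*, an MHC class II chain, at 526 ± 93.7 RPKM and 3.00-fold higher. *Ccl21a*, the gene of the other reporter, was at 404 ± 137 RPKM in CCL21+, 109 ± 38.4 in RANK+, and 7.89 ± 1.41 in double-negative TECs, and it has near-identical copies with which it shares reads. *Psmb11*, which encodes the thymoproteasome subunit of cortical TECs, was at 20.7 ± 10.7 RPKM in RANK+, 267 ± 65.1 in CCL21+, and 296 ± 4.42 in double-negative TECs.

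Markers of other cell types also differed between the populations. Of all tested genes 25.4% were called higher in RANK+ than in double-negative TECs. Of 9 thymocyte markers 8 were higher in RANK+ than in double-negative TECs, and their summed level was 99.2, 41.0, and 81.3 CPM against 15.7 and 13.7, with *Rag1* or *Lck* the most abundant by RPKM. All 4 myeloid markers were higher, at 88.2, 25.3, and 31.8 CPM against 0.682 and 0.628, with *Lyz2* the most abundant at 52.3, 14.7, and 17.8 RPKM. Of 6 mesenchyme markers 4 were higher, at 286, 141, and 181 CPM against 23.6 and 10.7, led by *Col1a1* and *Dcn*, while *Pdgfra*, a defining marker, was not called. Of 4 endothelial markers 2 were higher, at 10.9, 6.96, and 5.15 CPM against 0.815 and 0.461, with *Cdh5* the most abundant. Of 5 neuron markers 4 were higher, at 21.9, 32.3, and 32.7 CPM against 18.8 and 27.2, although *Stmn2*, which held most of that sum, was not called. Of 4 erythroid markers 1 was higher, at 106, 178, and 183 CPM against 282 and 34.5, led by the globin genes. No marker of these lists was at 0 in a RANK+ library except 1 endothelial marker in replicate 3.

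Over CCL21+ TECs 4 thymocyte, 4 myeloid, 4 mesenchyme, 2 endothelial, 4 neuron, and 1 erythroid markers were higher in RANK+ TECs, and *Pdgfra* and *Stmn2* were lower. Of all tested genes 27.5% were called higher and 17.8% lower in this comparison. In the CCL21+ libraries the summed levels were 55.4, 20.7, and 30.1 CPM for thymocyte, 1.83, 0.565, and 0.635 for myeloid, 14.9, 15.9, and 8.93 for mesenchyme, and 1.09, 1.83, and 0.889 for endothelial markers. The neuron markers were at 37.2, 53.4, and 48.2 CPM and the erythroid markers at 4.25, 101, and 33.8 CPM there. Parathyroid markers were high in these libraries, at 13588, 3127, and 3584 CPM against at most 85.4 in any other library, led by *Chga*. The summed level of the 8 self-antigen genes was 238, 87.5, and 102 CPM in RANK+ TECs, with replicate 1 the highest, as it was for the myeloid, mesenchyme, thymocyte, and endothelial markers. *Csn2* alone held 85.3%, 81.4%, and 82.7% of the summed counts of the 8 genes in the RANK+ libraries. The part of other cells in the levels of the 8 genes was not tested.

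**Figure D5:**
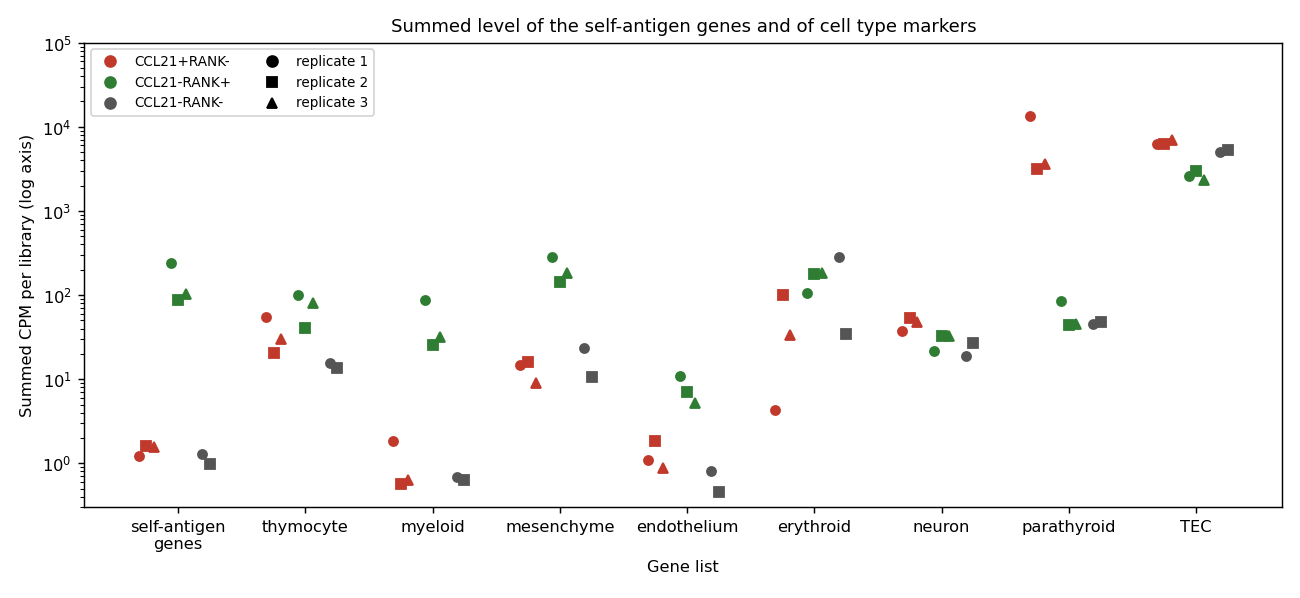
Summed CPM (log axis) of the 8 self-antigen genes and of 8 lists of cell type markers in each of the 8 libraries. The self-antigen, myeloid, mesenchyme, and endothelial sums of all 3 CCL21-RANK+ libraries lie above those of all other libraries. The parathyroid sum is highest in CCL21+RANK- TECs, and the TEC sum is lowest in CCL21-RANK+ TECs. Of the TEC markers *Krt8*, *Psmb11*, and *Foxn1* were lower in CCL21-RANK+ than in both other populations, and *Epcam* was higher. *Krt5* was higher than in CCL21-RANK- and lower than in CCL21+RANK- TECs.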

How the data were processed

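Per the labels and the study's methods, TECs were sorted from E17 embryos and sequenced, and the authors deposited expected counts per gene. The submitters' processing notes name bcl2fastq 2.20, Trimmomatic, STAR 2.5.1, RSEM 1.3.1, and mm10. The labels and the methods name different library kits and RNA kits, and the strand setting of counting is not given in the sources used here. The expected counts were rounded to whole numbers, and 4.47% to 5.94% of values per library were not whole. All 55450 gene identifiers matched GENCODE M21 (GRCm38), whose merged exons gave the lengths for RPKM.

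Counts were fitted in edgeR 4.0.16 (R 4.3.3) with TMM scaling, its default filter on low counts, and 3 group means over all 8 libraries. Its quasi-likelihood F test, adjusted by Benjamini-Hochberg over 21451 genes, called a gene at an adjusted p under 0.05 and a fold over 1.5. On simulated data 72% of 200 genes changed 4-fold were recovered, with 5 other genes called, for RANK+ over double-negative TECs and 20518 genes. A fold against a group at 0 used a floor of 3 counts per library. The named genes were the 8 members, up to 3 called genes of largest change and 2 of highest level in each organ list, all regulators, and the 2 genes most like each member. A gene that the rule would name is not reported here. Other listed genes were named after their values were seen. The members and the lists were chosen with earlier results of these data known. Alternatives were DESeq2 1.42.0, other scalings and filters, a replicate block, and leaving out each library. Gene *Gm26917*, which is rich in ribosomal sequence, held 6.89% to 19.4% of counts per library.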

Additional observations from a re-analysis of the deposited data

How the results depend on the processing

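*Tg* and *Csn2* were called higher in RANK+ TECs over both other populations under all 17 alternatives run. The number of members called over double-negative TECs was 5, but 3 (*Csn2*, *Tg*, and *Chrna1*) where a mean of more than 1 RPKM was required, and 3 to 6 when 1 library was left out, with 3 without double-negative replicate 2. Over CCL21+ TECs it was 6, but 3 with more than 1 RPKM, and 3 to 6 when 1 library was left out, with 3 without CCL21+ replicate 2. Without RANK+ replicate 1 the numbers were 4 and 4, and *Ins2* and *Myh6* did not pass the filter. *Ins2* over double-negative TECs was called by DESeq2 (adjusted p = 0.0461), without the filter (0.0177), and without RANK+ replicate 3 (0.0243), the latter 2 from edgeR. All genes called between CCL21+ and double-negative TECs numbered 2126, and 753 to 2621 when 1 library was left out, with 753 without double-negative replicate 2 and 921 without replicate 1. *Csn2* turned direction in that comparison, where it was not called, from -0.73 to 0.40 without double-negative replicate 1, over a range of -1.41 to 0.40. The cause was not tested.

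Replicate numbers are shared between groups, and the main fit did not treat same-numbered libraries as pairs. The deviations of same-numbered CCL21+ and RANK+ libraries from their group means had r of 0.126, 0.0485, and 0.0707. Those of different number had r of -0.0984 to 0.0410. Same-numbered pairs with a double-negative library had r of -0.117 to -0.0411. Whether same-numbered libraries belong together was not tested. With the replicate block 5, 5, and 0 members were called. *Myh6* was lost (adjusted p = 0.0696 and 0.0824 from edgeR) and *Ins2* over double-negative TECs was gained (0.0452).

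Few libraries and few counts limit *Myh6*, *Ins2*, *Rbp3*, and *Mog*, and leaving out a library could also end a call of *Chrna1*. Scaling moved the median log2 change of all genes over double-negative TECs from 0.06 to 0.20 with DESeq2 size factors. Without the filter, which adds genes of low count, it was 0.38.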
